A study of Mus musculus with 14 samples.

Results

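AP-1 is a pair of bZIP transcription factors, usually a FOS-family protein with a JUN-family protein, and the accessible chromatin around 9 genes that encode such factors was followed while embryonic stem (ES) cells were driven towards primitive endoderm (PrE). The genes were Fos, Fosb, Fosl1 and Fosl2 (FOS family), Jun, Junb and Jund (JUN family), and Atf3 and Batf3, 2 further bZIP proteins that pair with JUN proteins. The regions were chosen by position: a region counted as a member if the nearest protein-coding transcription start site (TSS) within 50 kb of its centre belonged to 1 of the 9 genes. This gave 64 regions of 124598 in the series. The genes themselves were picked with earlier results on the AP-1 motif in these libraries in view, so counts over them are given as a description beside the same count over all regions, with no test.

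The FOS and JUN proteins bind the 7-base motif TGAGTCA as a dimer. Fos, Fosb, Jun, Junb and Atf3 are immediate-early genes: they are transcribed within minutes of a stimulus such as serum, growth factors or stress, without new protein synthesis, through serum response factor (SRF), its ternary complex partners and the MAP kinases. Their chromatin is commonly open before the stimulus, and the newly made AP-1 dimers then bind and open enhancers elsewhere. Jund is made more steadily, and Fosl1 and Fosl2 are typically induced later than Fos.

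The cells were KH2 mouse ES cells (strain label C57BL/6), a single line in which 1 copy of a transgene drives GATA6-FLAG and DsRed2 from a doxycycline (Dox)-responsive element, so that all libraries carry the transgene. Accessibility was measured by ATAC-seq, which inserts adapters into open DNA with a transposase, in 50000 cells per library. The 14 libraries are 2 per time point, taken 0, 2, 4, 8, 16, 24 and 48 h after Dox was given. The 0 h cells were in 2i medium, which holds LIF, the MEK inhibitor PD0325901 and a second inhibitor and has no serum, and had no Dox. Cells of 2, 4 and 8 h were in serum medium with LIF and 1 µg/mL Dox, and those of 16, 24 and 48 h had Dox for 12 h and then serum medium without it. Removal of the MEK inhibitor and of the second inhibitor, a change of base medium, addition of serum and induction of GATA6 thus coincide. No library had serum without Dox, and the parts of these changes in any difference from 0 h cannot be told apart. Bulk libraries also cannot tell a region open in fewer cells from one less open in every cell.

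Each library had a list of 55588 to 65073 peaks with 1 score per peak and no read counts, so depth is unknown and a region absent from a list may be open below the calling threshold. A library calls a region where it has a peak over any of it. At a given time, gained regions are those called by both of its libraries and by none of 0 h, lost regions are the opposite, and shared regions are called by all 4. The score is given as a percentile within its own library, with 100 for the highest peak. Peaks lay within 1 kb of the TSS in both libraries for 7 of 8 pluripotency markers at 0 h and 6 at 48 h. Of the PrE markers, Gata6, Sox17, Pdgfra and Dab2 had such peaks at every time, and Gata4 and Foxa2 lacked them at 0 h and had them at each time from 8 h on. Cdx2 and Eomes (trophectoderm) and Pax5 (B cells) also had them at every time, and Prrx1 (fibroblasts) had none. Open promoters thus include genes of other lineages and do not by themselves mark a cell type. With 2 libraries against 2, no exact two-sided test can go below p = 0.33, so no p-value is given.

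Sequences around the AP-1 motif in regions of these genes are shown first, with the motif in capitals. All are the plus strand of GRCm38. The motif is its own reverse complement except for the central base, so TGAGTCA on one strand is TGACTCA on the other, and both were searched. The first pair lies upstream of Fosb, in introns of the noncoding gene D830036C21Rik, and is the only pair of the 64 regions that was both gained at 2 h and had the motif within 100 bp of the region's centre.
Fosb 11.6 kb upstream, chr7:19321635-19321715: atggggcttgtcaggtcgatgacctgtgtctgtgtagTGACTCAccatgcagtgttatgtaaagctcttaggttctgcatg
Fosb 17.2 kb upstream, chr7:19327311-19327391: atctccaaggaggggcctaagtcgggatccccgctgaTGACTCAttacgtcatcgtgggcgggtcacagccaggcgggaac
The next 3 were not gained. The first, in an intron of the noncoding gene Junos, was called in 1 library of 2 h and nowhere else, and the other 2 were called in all 14 libraries, with the motif more than 100 bp from the centre.
Jun 42.6 kb upstream, chr4:95094751-95094831: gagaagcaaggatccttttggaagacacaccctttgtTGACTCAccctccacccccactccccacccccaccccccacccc
Atf3 6.87 kb upstream of the internal TSS, chr1:191190011-191190091: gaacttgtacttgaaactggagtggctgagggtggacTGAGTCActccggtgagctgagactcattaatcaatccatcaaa
Atf3 6.80 kb upstream of the distal TSS, chr1:191224406-191224486: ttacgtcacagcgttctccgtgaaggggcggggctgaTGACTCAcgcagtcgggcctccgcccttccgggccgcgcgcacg
The regions over the starts of Fosl1 and Fosl2 also held the motif and are not shown, since it lies at or near their untranslated sequence. Also not shown are regions 7.16 kb upstream of Jund and 0.729 kb into Atf3, with the motif more than 100 bp from the centre. The Jund region was called in both libraries of 0 h and 1 of 2 h, and the Atf3 region in none of these.

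The immediate-early genes have known control elements next to their starts, and 3 of them lay under a peak in all 14 libraries. They are shown on the strand of the gene with the element in capitals: the CArG box, the letters that SRF binds, for Fos and Fosb, and the AP-1-like element TGANNTCA, through which JUN dimers act on the Jun gene, for Jun.
Fos, from 309 bases before the RefSeq start, chr12:85473541-85473630, plus strand: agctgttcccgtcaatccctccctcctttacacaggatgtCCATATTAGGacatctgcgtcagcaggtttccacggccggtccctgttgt
Fosb, from 272 bases before the start, chr7:19310268-19310357, minus strand: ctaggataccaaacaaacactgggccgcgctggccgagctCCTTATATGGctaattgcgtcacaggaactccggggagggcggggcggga
Jun, from 45 bases before the start, chr4:95052223-95052307, minus strand: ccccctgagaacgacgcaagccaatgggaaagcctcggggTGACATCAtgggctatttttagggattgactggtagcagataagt
Over 32851 RefSeq starts, 2.47% had a CArG box, 18.7% had TGANNTCA and 7.33% had the AP-1 motif in the 450 bases before the start, on either strand. A match shows that the letters are there, not that they are bound.

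Before any Dox, the starts of most AP-1 factor genes were already accessible. Of the 64 regions, 21 (32.8%) were called in all 14 libraries, against 15.1% of all regions, and 10 (15.6%) were called in 1 library, against 17.9%. Of the 12 regions within 1 kb of a TSS, 8 were called in every library, and of all 20356 such regions of the series, 48.5% were. They lay at Fos, Fosb (2 regions), Fosl1, Fosl2, Jun, Jund and Atf3. Junb had its start called from 16 h on, though the region over its exon was called in all 14, and Batf3 had no region within 1 kb of its TSS in any library.

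**Figure D1:**
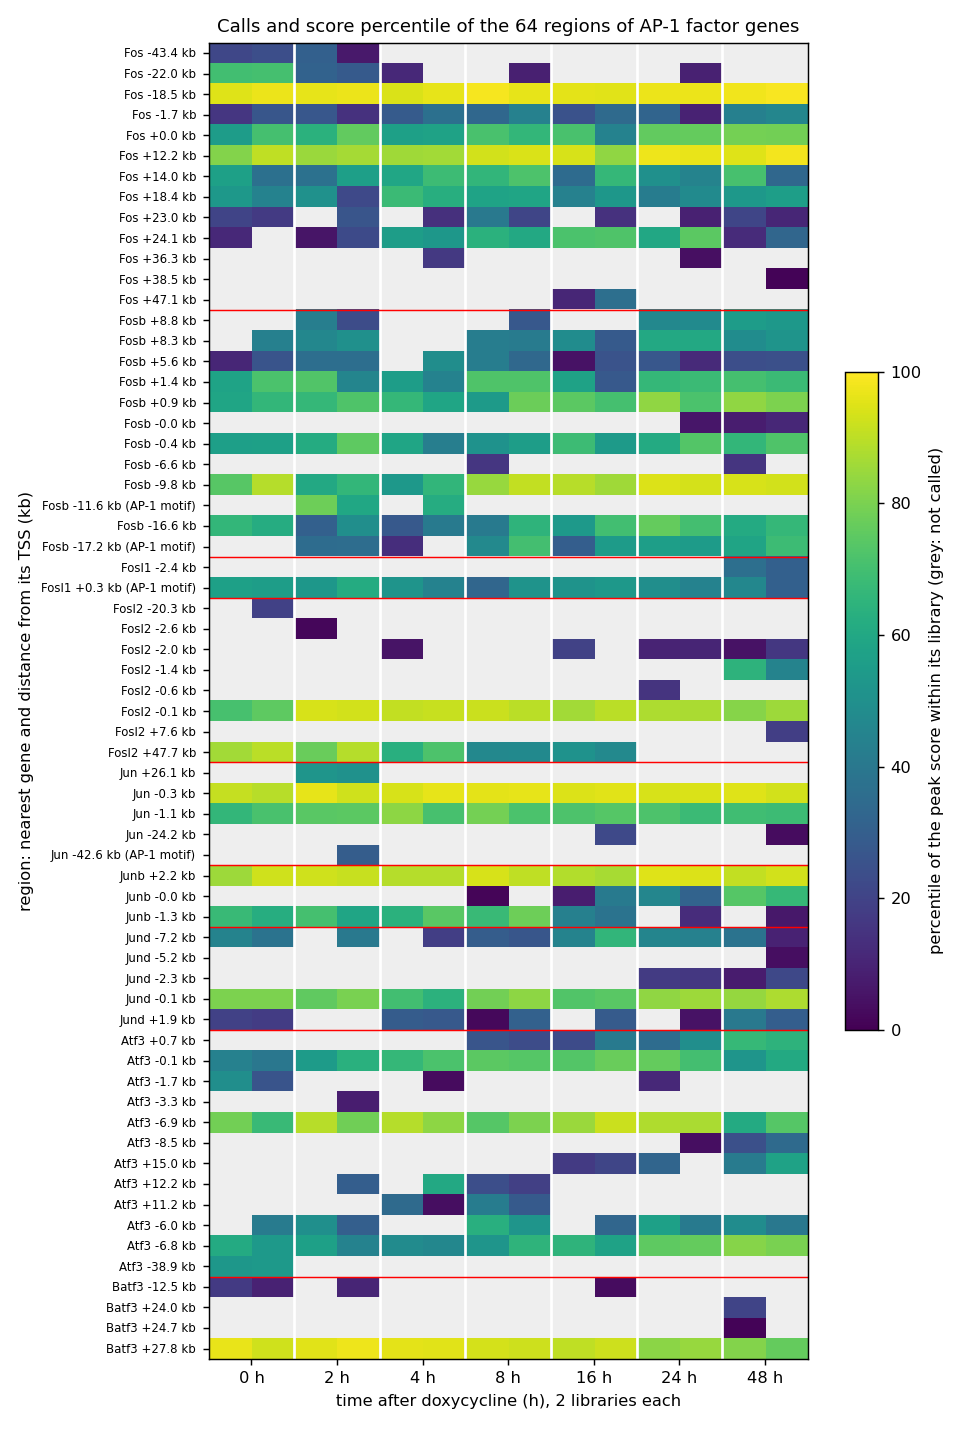
Each row is 1 of the 64 regions, named by its nearest gene and the distance of its centre from the TSS (minus, upstream; plus, downstream), and each column is a library, in pairs by time; colour gives the percentile of the peak score within its library and grey a region not called. The 21 rows filled across are called in all 14 libraries, and the Fosb row 11.6 kb upstream and the Jun row 26.1 kb downstream are filled at 2 h and grey at 0 h and 48 h.

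At 2 h, 4 of the 64 regions were gained, 3 were lost and 26 were shared. Over all 124598 regions, 8.64% were gained, 6.25% were lost and 27.2% were shared, against 6.25%, 4.69% and 40.6% of the member regions. The 4 gained regions lay at Fosb (3) and Jun (1). The 3 lost regions lay at Atf3 (2) and Jund (1). The share gained was thus near the background, and no gained or lost region was next to Fos, Fosl1, Fosl2, Junb or Batf3.

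Fosb encodes a FOS protein that activates transcription strongly. Its region 11.6 kb upstream (chr7:19321475-19321851) stood at percentiles 77.8 and 59.5 in the 2 libraries of 2 h and at 62.1 in 1 library of 4 h. It was not called in any other library, including both of 0 h. The region had gone from the lists by 8 h.

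The region 17.2 kb upstream of Fosb (chr7:19327005-19327521) was likewise absent at 0 h and stood at 35.4 and 35.6 at 2 h, and at 12.9 in 1 library of 4 h. It was then called in every library from 8 h, between 29.8 and 70.3. It therefore outlasted the region at 11.6 kb, with 1 library of 4 h lacking it. Its close neighbour, 16.6 kb upstream of Fosb, was called in all 14 libraries, and with peaks up to 100 bp apart merged the 2 are 1 region that is open throughout. At 48 h the region stood at 58.3 and 68.4.

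Fosb has 3 annotated TSSs. The third Fosb region, 8.79 kb downstream of an internal one and past the end of the gene (chr7:19300726-19300893), stood at 42.8 and 23.4 at 2 h. It was absent at 4 h and 16 h, was in 1 library of 8 h, and stood at 46.7 and 47.7 at 24 h and at 55.2 and 53.3 at 48 h. It had no AP-1 motif near its centre. Of the 12 Fosb regions, the 0 h libraries called 6 and 7, the 2 h libraries 10 each, those of 4 h 6 and 7, those of 8 h 9 each, those of 16 h 8 each, those of 24 h 9 and 10 and those of 48 h 11 and 10. The lists as a whole differed little in these first times, with 54137 and 56966 regions called at 0 h, 55373 and 58937 at 2 h and 56561 and 59429 at 4 h.

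Within 1 kb of the 5′ TSS of Fosb, the upstream region that holds the CArG box (chr7:19310239-19310677) stood at 56.6 and 57.0 at 0 h and at 61.7 and 75.1 at 2 h. A region in the gene (chr7:19308506-19308902) lay within 1 kb of an internal TSS, 0.896 kb downstream of it. It stood at 58.9 and 66.2 at 0 h, at 66.5 and 72.6 at 2 h and at 83.3 and 80.3 at 48 h. A narrow peak over the 5′ TSS itself (chr7:19309986-19310152) appeared in 1 library of 24 h at 5.94 and in both of 48 h at 7.85 and 11.2, low in their lists. This narrow peak is 1 of the 11 member regions gained at 48 h, and joins its upstream neighbour when peaks up to 100 bp apart are merged.

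Jun encodes the partner of most FOS proteins. Its start region (chr4:95052084-95053033), which holds the AP-1-like element, was among the highest peaks of each list, at 91.2 and 89.4 at 0 h, 96.2 and 92.8 at 2 h, and between 93.2 and 96.5 in the 10 libraries of 4 to 48 h. The 12 libraries after Dox lay above both of 0 h, by a few percentiles. A second region 1.10 kb upstream was also called in all 14.

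The gained Jun region lay 26.1 kb past the TSS in an intron of the noncoding gene Gm12694 (chr4:95025890-95026315). It stood at 52.1 and 50.6 at 2 h and was called in no other library. It had neither the AP-1 motif nor the GATA motif near its centre. Its score thus ranked near the middle of both 2 h lists.

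Fos encodes the founding member of its family. It had the most regions, 13, of which 6 were called in all 14 libraries, and none was gained at 2 h. The start region (chr12:85473418-85474400) stood at 55.5 and 70.5 at 0 h, 63.95 and 75.9 at 2 h, 56.9 and 57.5 at 4 h and 79.1 and 78.8 at 48 h, so that 0 h and 2 h overlapped. Peaks 18.5 kb upstream stood between 94.3 and 98.9 in every library, and those 12.2 kb downstream stood at 81.6 and 90.2 at 0 h and at 94.9 and 98.4 at 48 h.

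The Fos regions that were lost did not go at once. The region 43.4 kb upstream (chr12:85429995-85431035), in an intron of the noncoding gene Gm40477, was in all 4 libraries of 0 h and 2 h, between 6.79 and 30.8, and in none later. The region 22.0 kb upstream (chr12:85451601-85452147) stood at 69.5 and 70.4 at 0 h and 31.6 and 28.3 at 2 h, was called in 1 library each at 4, 8 and 24 h, between 8.90 and 11.4, and was absent at 16 and 48 h. Both count as lost at 48 h.

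A Fos region 24.1 kb downstream with a GATA motif moved up and down over the course. It was called in 1 library of 0 h at 11.5 and stood at 5.69 and 22.3 at 2 h, at 55.7 and 53.1 at 4 h and at 71.6 and 72.6 at 16 h. At 48 h it was back at 12.4 and 33.0. The libraries of 4, 8, 16 and 24 h all stood above those of 0, 2 and 48 h. A region 47.1 kb downstream was called in both libraries of 16 h, at 10.5 and 36.6, and nowhere else.

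Atf3, a stress-induced repressor and activator that pairs with JUN proteins, has 2 TSSs. The region at the internal TSS (chr1:191182944-191183838) stood at 43.99 and 39.6 at 0 h, 55.0 and 63.4 at 2 h, 66.5 and 71.5 at 4 h and 74.8 and 73.7 at 8 h. It was at 52.2 and 60.8 by 48 h. The 12 libraries after Dox all lay above both of 0 h. Next to it, a region 0.729 kb into the gene (chr1:191182363-191182858) was absent up to 4 h and called in both libraries of each later time. It went from 26.2 and 23.1 at 8 h to 66.9 and 64.8 at 48 h. With peaks up to 100 bp apart merged, it joins the region at the internal TSS and the 2 are 1 region that is open throughout.

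Both regions that Atf3 lost by 2 h had been called in both 0 h libraries. The one 38.9 kb upstream (chr1:191256506-191257358) stood at 53.1 and 54.2 at 0 h and was called in no later library. The one 1.73 kb upstream (chr1:191184924-191185207), in an Atf3 intron, stood at 49.3 and 25.9 at 0 h and came back in 1 library each of 4 h and 24 h, at 2.96 and 11.3. Both count as lost at 2 h and at 48 h.

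Other introns of Atf3 opened later. A region 11.2 kb from the distal TSS was called only at 4 and 8 h, at 34.7 and 3.60 and then 41.8 and 28.3, and one 12.2 kb from it was in 1 library each of 2 and 4 h and in both of 8 h, at 23.9 and 18.9. Both have a GATA motif near the centre and were gone by 16 h. The region 15.0 kb from the distal TSS (chr1:191202825-191203189) was in both libraries of 16 h and 48 h and 1 of 24 h, and that 8.49 kb upstream of the internal TSS (chr1:191191601-191192049) in both of 48 h and 1 of 24 h. These last 2 count as gained at 48 h.

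Jund, the most constantly made JUN protein, had its start region (chr8:70698296-70699401) in all 14 libraries, between 64.1 and 87.5, with the 4 h libraries lowest. A region at 1.89 kb, over the end of this short gene (chr8:70700574-70701103), stood at 19.3 and 17.6 at 0 h, was missing from both 2 h libraries and was back at 29.1 and 27.9 at 4 h. It counts as lost at 2 h, but 1 library each of 16 and 24 h missed it too, and it was in both at 48 h. A region 2.31 kb upstream (chr8:70696546-70696730) was called in both libraries of 24 h and 48 h and in none before, between 7.57 and 21.6.

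Junb, whose protein can dampen JUN activity, had a start region that was called late. The region centred 9 bp from its TSS (chr8:84978447-84979007) was absent at 0, 2 and 4 h, stood at 1.495 in 1 library of 8 h and at 8.02 and 40.9 at 16 h, 45.8 and 32.0 at 24 h and 73.6 and 66.8 at 48 h. The neighbouring region 1.27 kb upstream went the other way, from 67.8 and 62.3 at 0 h to 43.5 and 38.2 at 16 h and then 12.7 and 6.44 in 1 library each of 24 h and 48 h. The peak over the exon stayed between 85.2 and 95.2 in all 14 libraries.

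Fosl2 encodes FRA-2. The region over the TSS (chr5:32135306-32136173) stood at 70.9 and 75.1 at 0 h and 93.8 and 93.1 at 2 h, and at 81.8 and 85.3 at 48 h. All 12 libraries after Dox lay above both of 0 h. A region 47.7 kb downstream (chr5:32182928-32184079) stood at 86.3 and 89.6 at 0 h and at 51.1 and 46.9 at 16 h, and was absent at 24 and 48 h. Regions 1.42 kb upstream (chr5:32134140-32134622, 64.7 and 44.7 at 48 h) and 2.05 kb upstream (chr5:32133625-32133878, 4.83 and 16.2 at 48 h) were gained at 48 h.

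Fosl1, which encodes FRA-1, had 2 regions. Its start region (chr19:5447467-5448521), which has the AP-1 motif, stood at 57.0 and 55.5 at 0 h, 52.9 and 61.5 at 2 h and 46.4 and 30.7 at 48 h, with 0 h and 2 h overlapping. A region 2.40 kb upstream (chr19:5445009-5445282) was called at 48 h alone, at 36.4 and 30.7. Batf3, best known from dendritic cells, kept a peak 27.8 kb downstream in all 14 libraries, from 96.8 and 92.8 at 0 h down to 81.3 and 76.5 at 48 h. It lost a low region 12.5 kb upstream (chr1:191085562-191086137) that lies in untranslated sequence of the neighbouring gene Nsl1 and stood at 16.9 and 9.68 at 0 h.

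**Figure D2:**
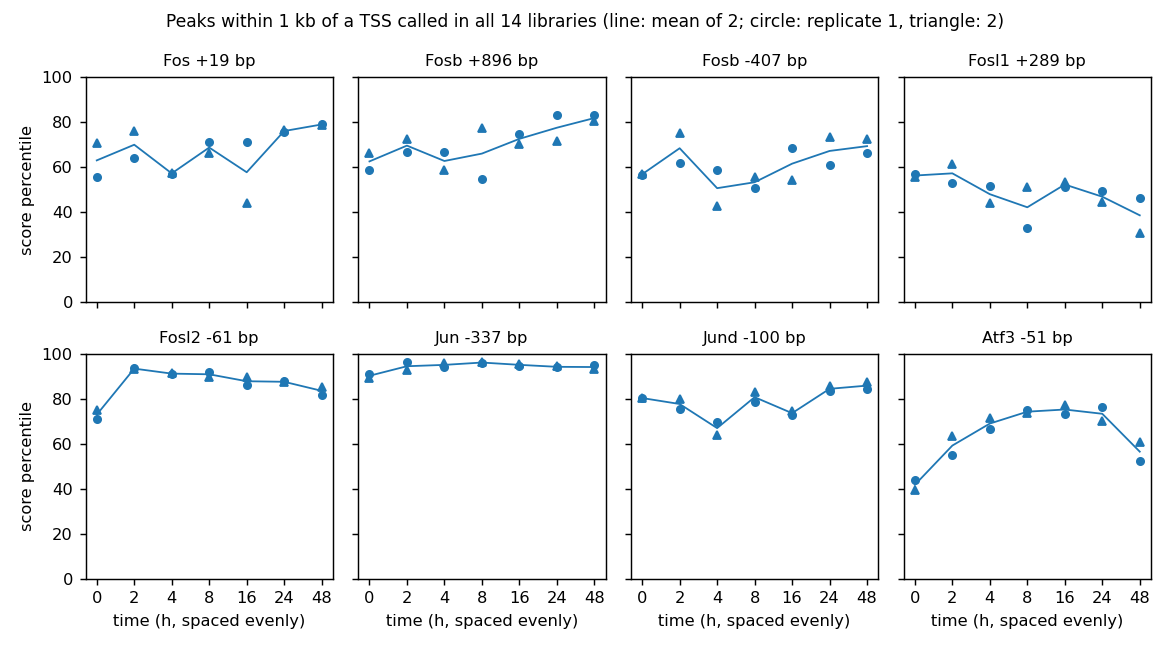
Score percentile (vertical axis, 0 to 100) against time (spaced evenly) for the 8 regions within 1 kb of a TSS that were called in all 14 libraries; circles and triangles are the 2 libraries and the line joins their means. Fosl2 goes from 70.9 and 75.1 at 0 h to 93.8 and 93.1 at 2 h, Atf3 reaches 74.8 and 73.7 at 8 h, and Jun stays above 89.

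Among these 8 regions, 5 stood higher in both 2 h libraries than in both 0 h libraries and 1 stood lower (Jund). The 5 were at Atf3, Jun, Fosl2 and Fosb, with both Fosb regions, of which 1 is near an internal TSS. Over the 9876 regions of the series within 1 kb of a TSS and called in all 14, 17.4% were higher in both 2 h libraries. For 3 of the 8 (Atf3, Jun and Fosl2) all 12 libraries after Dox were above both of 0 h, against 3.77% of the 9876, and 0 of the 8 were below throughout. The shares of the 9876 that stood lower were not counted, so the counts of lower regions have no background. A percentile is a rank among the peaks of a list and moves when other peaks come and go, so it gives no fold change. The genes were picked with these libraries in view, and no test was made of these shares.

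Both at the 9 genes and over the series, more regions differed from 0 h at 48 h than at 2 h. Gained and lost regions together were 10.9% of the 64 at 2 h and 26.6% at 48 h, against 14.9% and 31.1% of all regions. At 4 h, 1 region was gained and 3 were lost (1.56% and 4.69%), against 10.1% and 7.37% of all regions. The gained share was thus below that of 2 h at the 9 genes, but above it over the series. At 8 h 4 were gained and 4 lost (6.25% each, against 11.1% and 9.99%). At 16 h it was 5 and 4 (7.81% and 6.25%, against 13.3% and 9.71%). At 24 h it was 6 and 4 (9.38% and 6.25%, against 11.6% and 13.2%). At 48 h 11 were gained, 17.2% of the 64, against 14.5%, and 6 were lost, 9.38%, against 16.6%. The regions gained at 48 h belonged to Fosb (3), Atf3 (3), Fosl2 (2), Fosl1, Junb and Jund. Those lost belonged to Fos (2), Atf3 (2), Fosl2 and Batf3.

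Few of the regions came and went. A region was transient if called in both libraries of at least 1 time point from 2 to 24 h and in none of 0 h and 48 h. This held for 5 of the 64 (7.81%), against 13.9% of all regions. They were the Fosb region at 11.6 kb, the Jun region at 26.1 kb, the Fos region at 47.1 kb and the 2 Atf3 regions at 11.2 and 12.2 kb.

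The AP-1 motif itself was in few of the regions of these genes. Within 100 bp of the centre it was in 4 of the 64 (6.25%), against 9.22% of all regions. The 4 were both Fosb regions shown above, the Fosl1 start and the Jun region at 42.6 kb. Anywhere in the region it was in 9 (14.1%), against 17.0%. Of the 33 regions called in both 2 h libraries, 3 had it near the centre. Among all regions called in each single 2 h library, 14.04% and 14.24% had it, and the share of all regions called in both was not counted. Of the 4 gained at 2 h, 2 had it, against 40.4% of all regions gained then. A GATA motif (A or T, then GATA, then A or G, on either strand) was near the centre of 14 of the 64 (21.9%), against 35.5% of all regions, and of 2 of the 11 gained at 48 h, against 57.8% of all regions gained then. The cAMP element TGACGTCA, which ATF proteins bind, was near the centre of 0 of the 64, and of 0.416% of all regions, so that a count of 0 says nothing about these genes.

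Across the genome, the AP-1 motif was frequent in the regions that opened at 2 h. Among all regions called in a library, those with the motif made up 4.58% and 4.54% in the 2 libraries of 0 h, 14.04% and 14.24% at 2 h, 10.7% and 10.8% at 4 h and 8.38% and 8.27% at 8 h. They made up 5.49% and 5.56% at 16 h, 4.53% and 4.61% at 24 h and 4.22% and 4.18% at 48 h. The share was thus higher at 2 h than at 0 h and was back near its start by 24 h, with the 2 libraries of each time close together. Control letters with the same bases in another order (TAGGCTA or TAGCCTA) stayed between 1.42% and 1.54%.

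Of the 10765 regions gained at 2 h, 4344 (40.4%) had the AP-1 motif, against 5.57% of the 33920 shared and 1.13% of the 7790 lost. Taking each 2 h library against the 0 h library of the same number, the share was 32.9% ± 1.01 in gained, 5.75% ± 0.116 in shared and 1.64% ± 0.0643 in lost regions (SD, n = 2 pairs). The differences between the 3 classes were many times the spread between pairs. The control letters were in 1.71% of gained regions. Among regions gained at 4 h the share was 24.6%, and at 8, 16, 24 and 48 h it was 15.3%, 7.20%, 5.47% and 5.01%.

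**Figure D3:**
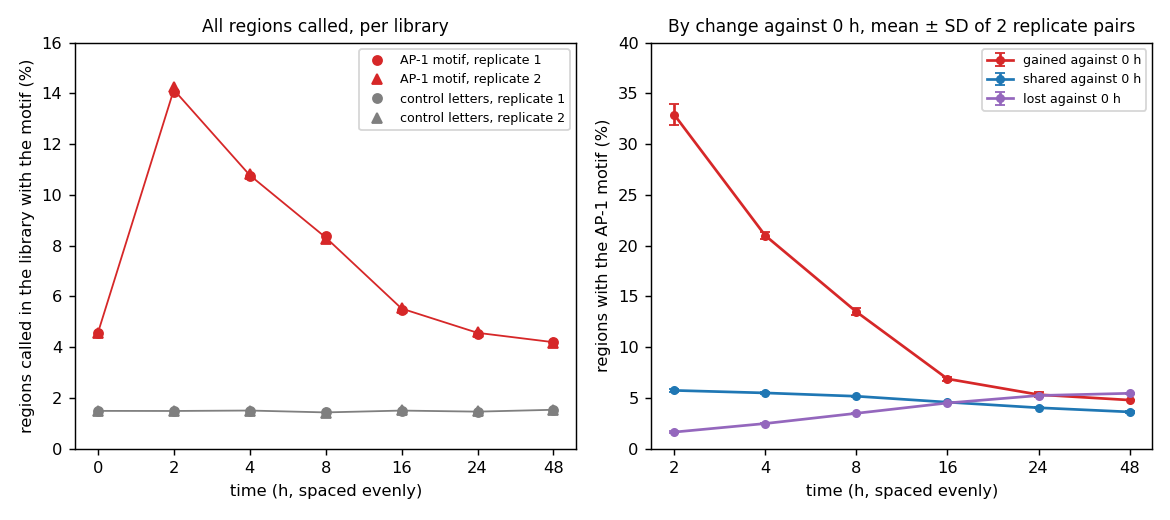
Left, the share of regions called in each library that have the AP-1 motif within 100 bp of the centre (red) or the control letters (grey) by time, spaced evenly; right, the share with the AP-1 motif in regions gained, shared and lost against 0 h (mean ± SD of 2 replicate pairs). The AP-1 share is highest at 2 h in both panels, at 14.04% and 14.24% of called and 32.9% of gained regions, while the control letters lie between 1.42% and 1.54%.

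Most of the AP-1 motif regions that opened did so in the first interval sampled. Of regions called in both libraries of a time point and in no library of an earlier one, 40.4% had the AP-1 motif at 2 h, but 6.98% of the 3895 at 4 h, 3.63% of the 2589 at 8 h, and 2.50%, 2.45% and 3.50% at 16, 24 and 48 h. The GATA motif was in 46.8% of the new regions at 2 h and 75.4% at 4 h.

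The motif also had a position. In regions gained at 2 h, AP-1 sites were densest in the 20 bp next to the centre on the side of higher coordinates, with 6.03 sites per 100 regions, against 1.15 and 1.29 in the bins at the edges, 200 bp from the centre. In shared regions there were 0.54 sites per 100 regions in that bin, and in lost regions 0.116. The control letters lay between 0.0836 and 0.269 sites per 100 gained regions in every bin. Read as TGAGTCA, the 5047 sites of gained regions were preceded by A in 33.2%, G in 31.9%, C in 28.1% and T in 6.78%, and were followed by A in 4.20%.

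**Figure D4:**
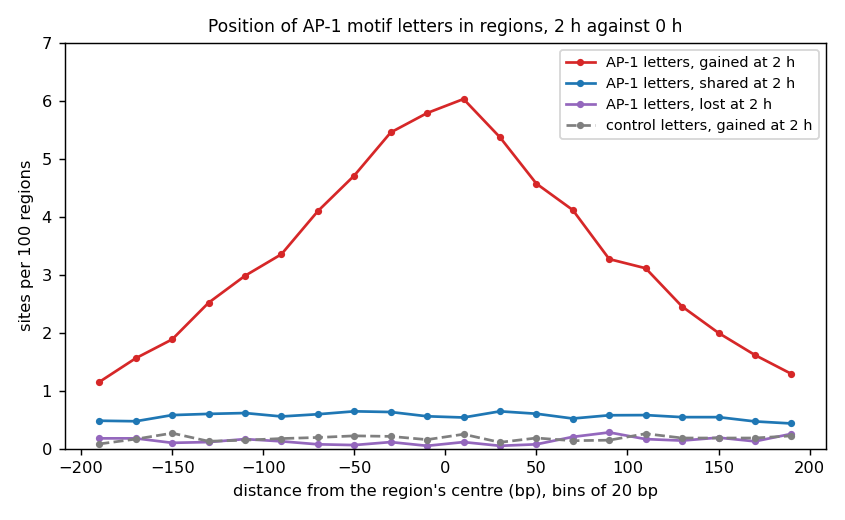
Sites per 100 regions (vertical axis) in bins of 20 bp against distance from the region's centre, for the AP-1 motif in regions gained, shared and lost at 2 h and for control letters in gained regions. The gained curve peaks beside the centre at 6.03 and is 1.15 and 1.29 at the edges, and the other curves are low across the window.

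The regions gained at 2 h were then followed in the later libraries, whose calls do not enter the rule for gained. Peaks of every library were merged to set each region's extent and centre, however. The motif class of a region is therefore not independent of its later calls, and the effect of this was not tested. They split into 2710 with the AP-1 motif only, 1634 with both AP-1 and GATA motifs, 3401 with the GATA motif only and 3020 with neither. At 4 h 58.8% ± 1.80 of the AP-1-only regions were still called (SD, n = 2). Their share was 31.9% ± 0.757 by 8 h and 13.9% ± 1.30 by 16 h. It was 7.71% ± 0.209 by 24 h and 6.09% ± 0.417 by 48 h. Of the GATA-only regions 83.7% ± 1.98 were called at 4 h, 60.3% ± 2.25 at 16 h and 36.3% ± 0.520 at 48 h. AP-1-only regions thus left the lists sooner, and the 2 libraries of a class did not overlap with those of the other at any later time.

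Regions with both motifs lay between them, at 77.8% ± 2.16 at 4 h, 31.6% ± 2.73 at 16 h and 13.8% ± 0.130 at 48 h. Regions with neither stood at 62.5% ± 2.27, 35.3% ± 2.27 and 22.2% ± 0.702 at these times. They were called more often than AP-1-only regions at each later time, by a margin near the SD at 4 h and a wide one from 8 h on, where 45.3% of them were called. In AP-1-only regions 29.4% were called in no later library, against 13.6% with both motifs, 8.29% with GATA only and 20.4% with neither. The median percentile of the AP-1-only regions at 2 h was 44.1 and 47.8 in the 2 libraries. It was 38.8 and 43.2 for GATA only, 36.3 and 40.05 for neither motif, and 48.5 and 50.8 for both motifs. Whether the score at 2 h bears on how long a region stayed in the lists was not tested. Of 1890 regions with the AP-1 motif that were open at both 0 h and 2 h, 93.4% were called at 4 h, 74.4% at 16 h and 45.2% at 48 h.

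**Figure D5:**
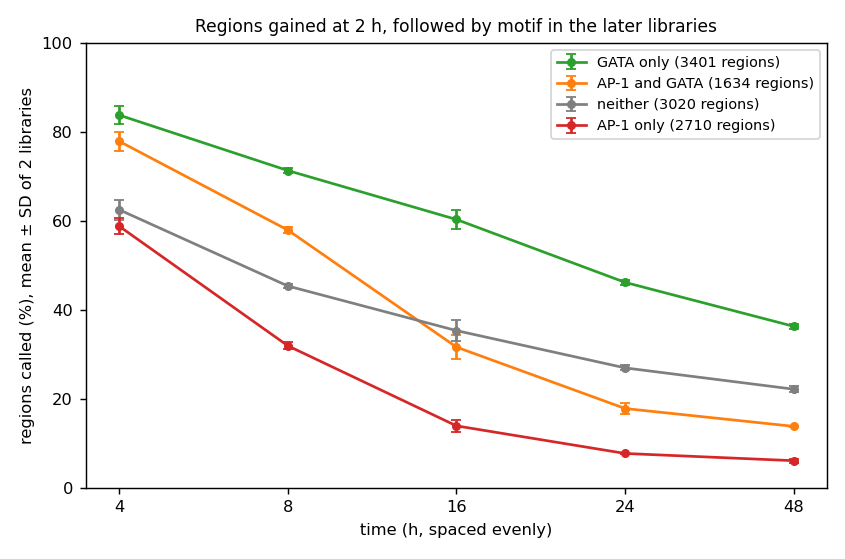
Share of the regions gained at 2 h that are called at later times (spaced evenly), by motif near the centre; points are means of 2 libraries and bars their SD. AP-1-only regions go from 58.8% at 4 h to 6.09% at 48 h and GATA-only regions from 83.7% to 36.3%.

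Both regions of the Fosb pair are of the AP-1-only class, of which 6.09% were called at 48 h, and they took different courses. The region at 11.6 kb, with the AP-1 motif 12 bp from its centre, was among those gone by 8 h, and the region at 17.2 kb, with the motif 88 bp from its centre, stayed to 48 h. Neither has a GATA motif near the centre, but the region at 17.2 kb has one farther from it and the region at 11.6 kb has none anywhere. The neighbour 16.6 kb upstream, called in all 14 libraries, has a GATA motif near its centre. The region at 17.2 kb joins that neighbour when peaks up to 100 bp apart are merged.

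Genes that work with the AP-1 factors were counted in the same way. Of 103 regions of 16 other bZIP partners and relatives, 11 were gained and 5 lost at 2 h. Of the 11, 6 had the AP-1 motif, against 40.4% of all regions gained at 2 h. The 6 lay at Jdp2 and Atf7, whose proteins pair with JUN, and at Atf1, Mafk and Nfe2l2, the last encoding the oxidative stress regulator NRF2. Of 86 regions of 13 kinases upstream of AP-1, 7 were gained and 7 lost, with 3 AP-1 motif regions, at Mapk10 (JNK3, 2 regions) and Map2k1 (MEK1).

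Of 57 regions of SRF and its partners, 2 were gained and 3 lost; both gained ones had the motif and lay at Elk3, a ternary complex factor. Of 71 regions of 14 known AP-1 target genes, 7 were gained and 4 lost. Of the 7, 3 had the motif, at Mmp9 (a matrix protease), Timp1 (an inhibitor of such proteases) and Areg (an EGF receptor ligand). Beside the 40.4% of all regions gained at 2 h that had the motif, these small counts single out no gene or list. The shares gained at 2 h for the 4 lists in this order were 10.7%, 8.14%, 3.51% and 9.86%, against 8.64% of all regions, and the shares lost were 4.85%, 8.14%, 5.26% and 5.63%, against 6.25%. At 48 h 11 partner regions were gained and 21 lost (10.7% and 20.4%), 16 and 16 of the kinases (18.6% each), 7 and 10 of SRF and its partners (12.3% and 17.5%) and 8 and 10 of the targets (11.3% and 14.1%). The shares of all regions at 48 h were 14.5% gained and 16.6% lost.

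Fosb had the most regions gained at 2 h of the 9 genes. Over the 14 libraries, the number of its regions called ran most closely with that of Eya2 (Pearson r = 0.868), Rps10 (0.856), Cemip (0.854), Acsf3 (0.852) and Fabp5 (0.844), among 7444 protein-coding genes with at least 5 regions. The numbers are small whole counts from 5 to 12 regions a gene, and libraries share their peak totals, so the order is a description.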

How the data were processed

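ATAC-seq peak lists of 14 libraries (KH2 ES cells, 7 time points, 2 libraries each) were used. The authors made them with the ENCODE ATAC-seq pipeline and deposited 1 list per library with an unnamed score per peak, on an unstated scale. Per the file names, peaks passed an irreproducible discovery rate of 0.05 between pseudoreplicates of that library and a blacklist filter, and replicates were not pooled. The build is mm10 (GRCm38) per the submitters' processing notes, and 0 of 839049 peaks ended past a chromosome. The labels do not say whether the 2 libraries of a time point came from separate cultures, and the study's reporting summary describes its replicates in general as independently performed. Peak lists hold no read counts, so the study's differential test was not run.

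Peaks overlapping by 1 bp or more were merged into 124598 regions. Each was assigned to the nearest TSS of protein-coding transcripts in GENCODE M21, within 50 kb of its centre. Scores were ranked within a list and never compared as raw values. Motifs were sought on both strands within 100 bp of the centre. The calls were checked on simulated data. Upstream sequences are from RefSeq (GRCm38), with 8 of 9 genes matched; Fosl1 had no entry. Python 3.11.15, numpy 2.4.6 and pandas 2.3.3 were used.

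The 9 genes and the lists were chosen with earlier results of these data known. All 9 genes are named, with positions for regions within 1 kb of a TSS and regions gained or lost at 2 h or 48 h, and with windows around the AP-1 motif in regions gained, or else called, at 2 h. Other regions were named after their values were seen. Mkl1 and Mkl2 were matched as Mrtfa and Mrtfb. The use of transcript starts and the follow-up of regions over 5 kb from a TSS were chosen after seeing the data. Alternatives covered distance, overlap, score, merging, motif window and leaving out a replicate. Some markers of the lists examined are not reported here.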

Additional observations from a re-analysis of the deposited data

How the results depend on the processing

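No p-value is given, so the alternatives concern counts and shares. Of 68 alternative values that left out no replicate, 41 stayed within 1.5 times the count or 1 SD of the share and 27 did not. Within 20 kb of a TSS, 2 member regions were lost at 48 h and 3 were transient. Within 100 kb, 5 were lost at 2 h and 11 at 48 h. Taking every region within 50 kb of a member gene, whichever gene was nearest, gave 158 regions, with 8 lost at 2 h, 21 gained and 16 lost at 48 h, 10 transient and 8 with the AP-1 motif called at 2 h. With a call in at least 1 library, 8 were gained at 2 h, 18 were gained at 48 h and 10 were transient. With 1 library per time point, which calls more by construction, 7 to 8 were gained and 4 to 6 lost at 2 h, 16 were gained and 7 lost at 48 h, and 7 to 8 were transient.

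The AP-1 share of regions gained, shared and lost at 2 h was 35.2%, 5.81% and 1.46% with a call in at least 1 library, and 60.2%, 16.4% and 4.74% with the motif anywhere in the region, where 6 member regions called at 2 h had it. The control letters gave 1.71%, 1.43% and 1.54%. The shared and lost shares were 5.81% and 1.23% with at least 50% of the region covered, the lost share was 1.45% in the 50000 highest peaks, and the shared share was 7.33% over 5 kb from a TSS. Leaving out a replicate gave 32.2% to 33.6%, 5.67% to 5.83% and 1.60% to 1.69%. The gained share was the highest of the 3 wherever all 3 are given here, for the control letters by a small margin. With the 5′ end of the gene as TSS, added after seeing the data, there were 60 member regions. No paired analysis was possible because the results come from no test that could hold a block, and the shares per same-numbered pair of libraries are a description. Depth is unknown, so a region not called may be open below the threshold.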
